A study of Rattus norvegicus with 8 samples.

Results

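The transcripts of 4 actin genes were followed in rat heart: Acta1 (ENSRNOG00000017786, skeletal alpha-actin), Actc1 (ENSRNOG00000008536, cardiac alpha-actin), Acta2 (ENSRNOG00000058039, smooth muscle alpha-actin) and Actb (ENSRNOG00000034254, cytoplasmic beta-actin). They were taken by gene ID from a member list that pairs each ID with its symbol, and all 4 were present among the 21549 genes of the deposited tables. RNA was sequenced from hearts of Sprague Dawley rats, an outbred laboratory strain, aged 3 months. Tissue of 4 rats kept in normoxia, labelled Control, was compared with tissue of 4 rats under chronic hypoxia, that is, lasting oxygen shortage, and each library was taken as 1 animal. No allele, transgene or other agent is named for either group. The sources used here do not give the oxygen level, the duration of exposure, the sex of the rats or the part of the heart.

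Actin monomers polymerise into filaments. In striated muscle, the alpha-actins Acta1 and Actc1 form the thin filaments of the sarcomere, along which myosin pulls. Actc1 is the main sarcomeric actin of the adult heart, whereas Acta1 predominates in adult skeletal muscle and is counted among the genes of the fetal cardiac programme that are often re-expressed in loaded hearts. Acta2 is the contractile actin of vascular smooth muscle and of myofibroblasts. Actb builds the cytoskeleton of nearly all cells and is widely used as a reference transcript. The proteins of the family are very similar, and their coding sequences resemble one another closely, so reads from shared stretches may have been dropped or placed with the wrong member. The sources used here do not say how the authors counted such reads.

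Actin genes of muscle are textbook targets of serum response factor, which binds the CArG box, a pair of C and a pair of G around a core of 6 A or T bases. The 250 bases upstream of the annotated transcript start are shown for the 3 actins held by the RefSeq promoter table (assembly GRCr8). They show where such boxes lie relative to that start. The table was searched by symbol, and Actb had no entry. Capitals mark each CArG box and each near match with 1 G or C in the core. All 3 sequences run 5′ to 3′ on the minus strand, at chr19:68784195-68784444 for Acta1, chr3:121271828-121272077 for Actc1 and chr1:241172504-241172753 for Acta2.
Acta1: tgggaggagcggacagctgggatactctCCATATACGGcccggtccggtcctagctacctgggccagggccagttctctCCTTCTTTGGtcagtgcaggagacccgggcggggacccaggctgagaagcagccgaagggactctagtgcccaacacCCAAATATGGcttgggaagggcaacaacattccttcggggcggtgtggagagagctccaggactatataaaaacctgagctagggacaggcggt
Actc1: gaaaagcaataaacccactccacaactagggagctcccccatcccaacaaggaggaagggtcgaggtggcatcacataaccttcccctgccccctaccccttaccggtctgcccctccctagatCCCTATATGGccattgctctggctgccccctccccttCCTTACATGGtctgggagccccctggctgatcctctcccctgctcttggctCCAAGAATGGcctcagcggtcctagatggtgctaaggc
Acta2: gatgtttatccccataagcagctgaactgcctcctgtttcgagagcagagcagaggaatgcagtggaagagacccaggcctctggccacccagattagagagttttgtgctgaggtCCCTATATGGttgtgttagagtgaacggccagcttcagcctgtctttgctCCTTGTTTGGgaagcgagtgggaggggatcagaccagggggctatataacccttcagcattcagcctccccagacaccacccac

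Acta1 was the only member of these 3 with a full CArG box upstream of its annotated start, CCAAATATGG, which began 94 bases before it. Of 33469 promoters of the same length, 1.50% held a full box and 6.84% held a near match. Acta1 also had near matches that began 222 and 171 bases upstream. Actc1 had 3 near matches, CCCTATATGG at 126, CCTTACATGG at 89 and CCAAGAATGG at 38 bases upstream. Its full box, CCAAATAAGG, lay just inside the annotated transcript, from base 3 to base 12. The difference from Acta1 in this respect thus depends on where the start is annotated, which was not tested. Acta2 had near matches alone, CCCTATATGG at 134 and CCTTGTTTGG at 84 bases upstream. The box of Actc1 at 126 and that of Acta2 at 134 bases thus shared the same letters. CATTCC, the core of the MCAT element of muscle genes, was found on either strand in Acta1 at 67 and in Acta2 at 196 bases upstream, and in 12.1% of all promoters. It had no match in the Actc1 window. ACGTG, a core of the hypoxia response element, had no match on either strand in the 250 upstream bases of any of the 3 genes, against 16.6% of all promoters, but Acta1 had a match just inside its annotated transcript, from base 8 to base 12. CANNTG, the E-box, began 237 bases upstream in Acta1 and 232 in Acta2 and was held by 65.5% of promoters. TATAAA began 29 bases upstream in Acta1, had no match in the other windows and was held by 12.9% of promoters. These are matches of letters and describe no binding.

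Library totals ran from 26229304 to 32160710 counts. All 4 actins passed the filter on low counts that left 14214 genes for testing, with at least 1027 counts in every library. The hypoxia libraries differed more among themselves than the normoxia libraries did. The biological coefficient of variation over all genes was 22.9% within hypoxia and 9.56% within normoxia, and on a principal component holding 20.9% of the variance hypoxia libraries 1 and 2 were at −37.9 and −29.8, with libraries 3 and 4 at 29.3 and 27.9. The files pair no ID with a symbol and the gene table matched 0 of the IDs, so the tissue label could be set only against Actc1 among the cardiomyocyte markers. Levels of actins other than these 4, of other cell type markers, of partner proteins of the thin filament and of serum response factor were not analysed here. In bulk tissue, a change in the number of cells of a type and a change in RNA per cell cannot be told apart.

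Both sarcomeric actins rose in chronic hypoxia, Actc1 2.72-fold and Acta1 2.61-fold, and Actb rose 1.53-fold. Acta2 was 1.23-fold higher, which did not pass the test. Thus 3 of 4 actins were called (edgeR quasi-likelihood test, adjusted p under 0.05 over all genes tested), all of them higher in hypoxia. Among all genes tested, 33.0% were called, 17.7% as higher and 15.3% as lower. The median log2 fold change of the 4 actins was 1.00, beside 0.01 over all genes tested. Under scaling by library totals alone, which shifted the median of all genes to −0.17, the 4 log2 fold changes remained above 0 and the same 3 genes were called, while 26.9% of all calls in the series were then higher, against 53.6% under the TMM scaling used here (trimmed mean of M values, which sets the scale of a library from the bulk of its genes).

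Per unit of length, the order of the levels was Actc1, Acta1, Actb, Acta2 in each of the 8 libraries. FPKM (counts scaled to the length of the gene model and to the depth of the library) was used for this, because it allows genes to be compared. In normoxia, Actc1 averaged 3275 ± 325 FPKM, Acta1 560 ± 58.5 FPKM, Actb 271 ± 26.8 FPKM and Acta2 31.5 ± 6.27 FPKM (SD, n = 4). No neighbours in that order overlapped in normoxia, and none did in hypoxia. Actc1 ranked between 13 and 18 among all genes by FPKM in the normoxia libraries and between 9 and 12 in the hypoxia libraries. Acta1 ranked between 74 and 103 in normoxia and between 26 and 60 in hypoxia. Actb held ranks 172 to 214 in normoxia and 113 to 225 in hypoxia, and Acta2 ranks 1259 to 2006 and 1100 to 1809.

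**Figure D1:**
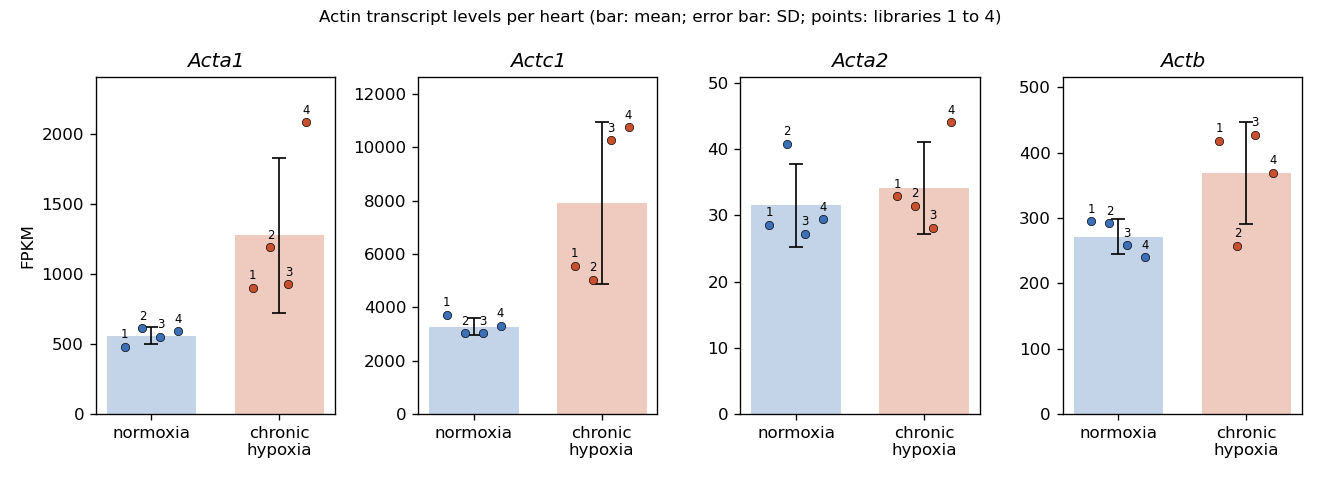
FPKM of each actin (vertical axis, linear from 0, a scale of its own per panel) in normoxia and chronic hypoxia; bars are means, error bars SD (n = 4) and numbered points the libraries. Actc1 and Acta1 lay higher in all 4 hypoxia libraries than in any normoxia library, whereas Acta2 and Actb overlapped between the groups on this scale.

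Actc1, the main actin of the cardiac thin filament, stood at 3720, 3037, 3029 and 3314 FPKM in normoxia libraries 1 to 4. In hypoxia libraries 1 to 4 it stood at 5565, 5030, 10263 and 10752 FPKM. The groups did not overlap in FPKM, nor did they in CPM (counts scaled to the TMM-adjusted library size). In CPM, the groups lay apart in the same direction for 17.3% of all genes tested. Hypoxia libraries 3 and 4 lay well above hypoxia libraries 1 and 2. The estimate was 1.45 on the log2 scale (SE 0.25; adjusted p = 0.00256, edgeR), a 2.72-fold rise with a 95% interval of 1.85 to 4.00. Relative to the normoxia mean of CPM, hypoxic hearts 1 to 4 were at 1.84, 1.82, 3.35 and 3.90 times. Leaving out hypoxia libraries 3 and 4 gave a log2 fold change of 0.86 (SE 0.10; adjusted p = 4.12e-04, edgeR), and leaving out libraries 1 and 2 gave 1.85 (SE 0.12). The call held with either pair, but the size depended on it. The pairs follow a split seen in these same libraries, so these fits are no independent support.

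Acta1, the skeletal alpha-actin, stood at 481, 614, 553 and 592 FPKM in normoxia libraries 1 to 4. In hypoxia libraries 1 to 4 it stood at 902, 1190.4, 927 and 2083 FPKM. Every hypoxic heart was above every normoxic heart, and hypoxia library 4 was far above the other hypoxic hearts. Both groups lay apart in CPM too, as was the case, with hypoxia higher, for 17.3% of all genes tested. The estimate was 1.38 on the log2 scale (SE 0.27; adjusted p = 0.00485, edgeR), a 2.61-fold rise with a 95% interval of 1.71 to 3.99. Hypoxic hearts 1 to 4 were at 1.74, 2.51, 1.77 and 4.41 times the normoxia mean of CPM. Without hypoxia library 4 the log2 fold change was 1.00 (SE 0.15; adjusted p = 0.00248, edgeR).

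Actb, the cytoskeletal actin, stood at 295, 292, 258 and 240 FPKM in normoxia libraries 1 to 4 and at 419, 258, 428 and 369 FPKM in hypoxia libraries 1 to 4. Hypoxia library 2 lay inside the normoxia range on this scale, and the other hypoxia libraries lay above it. In CPM, the groups did not overlap, with 326 to 384 CPM in normoxia and 400.5 to 600.0 CPM in hypoxia. The same was the case, with hypoxia higher, for 17.3% of all genes tested. The estimate was 0.61 on the log2 scale (SE 0.13; adjusted p = 0.00770, edgeR), a 1.53-fold rise with a 95% interval of 1.24 to 1.88. In edgeR the call held under each of the 4 scalings run, with the highest adjusted p, 0.0453, and a log2 fold change of 0.44 under library totals alone. On the log2(FPKM + 1) scale, limma gave 0.42 (adjusted p = 0.0648), which did not pass.

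Acta2, the actin of vascular smooth muscle and myofibroblasts, stood at 28.6, 40.8, 27.2 and 29.5 FPKM in normoxia libraries 1 to 4. In hypoxia libraries 1 to 4 it stood at 32.9, 31.5, 28.1 and 44.1 FPKM. The groups overlapped, and the highest heart of each group, normoxia 2 and hypoxia 4, stood close together on this scale. The groups also overlapped in CPM, where these hearts were further apart, at 52.5 and 68.5 CPM. The estimate was 0.30 on the log2 scale (SE 0.18; adjusted p = 0.214, edgeR), and its 95% interval reached from −0.09 to 0.70, or from 0.939-fold to 1.62-fold. The log2 fold changes of Acta1 and Actc1 lay above that interval. Single hypoxic hearts were at 1.13, 1.18, 0.954 and 1.66 times the normoxia mean of CPM.

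**Figure D2:**
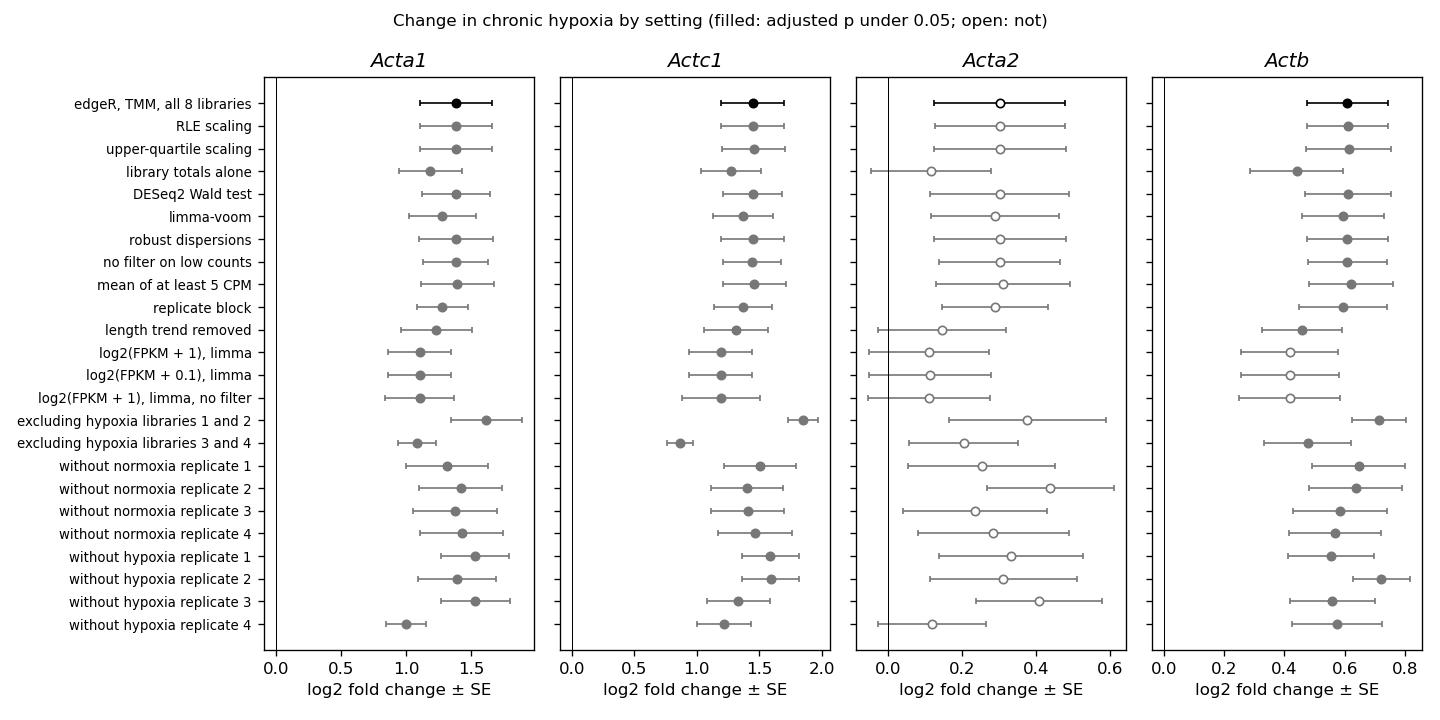
Log2 fold change in chronic hypoxia ± SE (horizontal axis, a scale of its own per panel) for each actin under the edgeR fit to all 8 libraries in black and 23 other settings in grey; filled points have an adjusted p under 0.05. Acta1 and Actc1 were filled throughout, Acta2 was open throughout at 0.11 to 0.44, and Actb was open under the 3 settings based on log2 FPKM.

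The order of the hypoxic hearts differed from actin to actin. Hypoxia library 4 had the highest FPKM of Acta1, Actc1 and Acta2, and hypoxia library 3 that of Actb. Hypoxia library 3 combined a high Actc1 level with an Acta1 level close to that of library 1 and the lowest Acta2 level of the group. Hypoxia library 2 had the lowest Actc1 and Actb levels of the group and the second highest Acta1 level. The coefficient of variation of FPKM between hearts was 43.4% in hypoxia and 10.4% in normoxia for Acta1, and 38.2% and 9.93% for Actc1. For Actb it was 21.2% and 9.87%, and for Acta2 20.2% and 19.9%.

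The 4 actins together made up 0.668%, 0.587%, 0.570% and 0.616% of all counts in normoxia libraries 1 to 4. In hypoxia libraries 1 to 4 they made up 1.02%, 0.960%, 1.72% and 1.96%. The part of the library held by these 4 actins was thus higher in every hypoxic heart, and Actc1 alone held 0.749% to 1.60% of counts there. Within the summed FPKM of the 4 actins, Actc1 held 79.0 ± 2.49% in normoxia and 81.7 ± 4.58% in hypoxia (SD over 4 hearts each; two-sided exact permutation p = 0.371, adjusted 0.464 over 10 share and ratio measures). Acta1 held 13.6 ± 2.08% and 13.8 ± 4.42% (SD over 4 hearts each; exact permutation p = 0.943, adjusted 0.943). The difference of 2.71 percentage points in the Actc1 share was smaller than its SD in hypoxia and larger than its SD in normoxia. It was 0.584 points without hypoxia library 3 and 4.20 points without hypoxia library 2.

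The shares of the less abundant actins had lower means in hypoxia, but did not pass the adjusted threshold. With 4 hearts against 4, an adjusted p under 0.05 over the 10 measures needs at least 6 of them at the smallest possible p, and 3 were there, so even groups that lay fully apart did not pass. The Acta2 share was 0.632%, 1.03%, 0.705% and 0.706% in normoxia libraries 1 to 4 and 0.476%, 0.484%, 0.242% and 0.333% in hypoxia libraries 1 to 4. All 4 hypoxic hearts lay below all normoxic hearts (exact permutation p = 0.0286, the smallest that 4 against 4 can give, adjusted 0.0952). The Actb share was 6.57 ± 0.650% in normoxia and 4.12 ± 1.38% in hypoxia (SD over 4 hearts each; exact permutation p = 0.0571, adjusted 0.114). Acta2 itself did not pass as higher or lower, which does not show that it was unchanged. Its smaller share went with larger mean FPKM of Actc1, Acta1 and Actb in the sum.

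**Figure D3:**
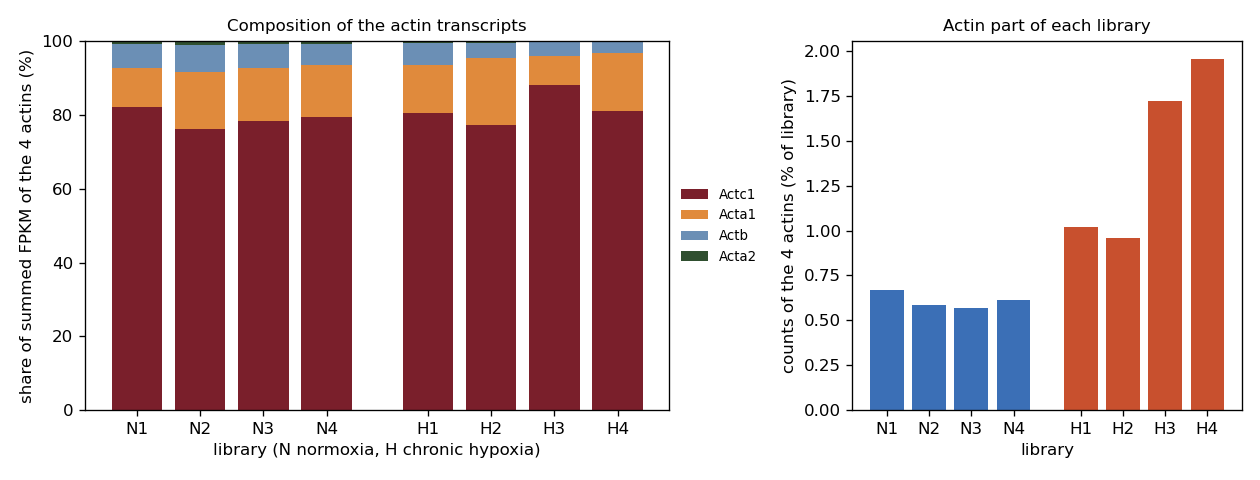
Left, share of each actin in the summed FPKM of the 4 actins (vertical axis, percent) in each library; right, counts of the 4 actins as a percentage of all counts of the library. Actc1 held 76.2% to 88.1% of the sum in all 8 libraries. These 4 actins made up 0.570% to 0.668% of counts in normoxia and 0.960% to 1.96% in hypoxia.

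Ratios between actins within a library do not depend on library scaling, and they were used to ask whether the members changed to different degrees. Acta1 stood at 12.9, 20.2, 18.2 and 17.9 FPKM per 100 FPKM of Actc1 in normoxia libraries 1 to 4. In hypoxia libraries 1 to 4 it stood at 16.2, 23.7, 9.03 and 19.4. The lowest and the highest of the 8 values were both hypoxic, in libraries 3 and 2. The log2 ratio of Acta1 to Actc1 differed by −0.09 between hypoxia and normoxia (SE 0.33, n = 4 each, exact permutation p = 0.8, adjusted 0.889). A shift between the sarcomeric isoforms was thus not detectable against this spread, and a moderate shift in either direction lies within it. The sign of the difference rested on single libraries, as it was 0.19 once hypoxia library 3 was left out and −0.27 once hypoxia library 2 was.

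Relative to Acta2, both sarcomeric actins were higher in all 4 hypoxic hearts. The log2 ratio of Acta1 to Acta2 was 3.91 to 4.34 in normoxia and 4.78 to 5.56 in hypoxia, a difference of 0.99 (SE 0.20, exact permutation p = 0.0286, adjusted 0.0952). That of Actc1 to Acta2 was 6.22 to 7.02 and 7.32 to 8.51, a difference of 1.08 (SE 0.33, exact permutation p = 0.0286, adjusted 0.0952). Neither group pair overlapped, but neither difference passed once adjusted over the 10 measures.

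Relative to Actb, the rises were smaller than on the count scale. The log2 ratio of Actc1 to Actb differed by 0.77 (SE 0.26, exact permutation p = 0.0571, adjusted 0.114) and that of Acta1 to Actb by 0.69 (SE 0.38, exact permutation p = 0.143, adjusted 0.238). In hypoxia libraries 1 and 3 the Acta1 to Actb log2 ratio was 1.11 and 1.12, inside the normoxia range of 0.70 to 1.30, and in libraries 2 and 4 it was 2.21 and 2.50. The ratio of Acta2 to Actb differed by −0.30 (SE 0.25, exact permutation p = 0.257, adjusted 0.367).

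**Figure D4:**
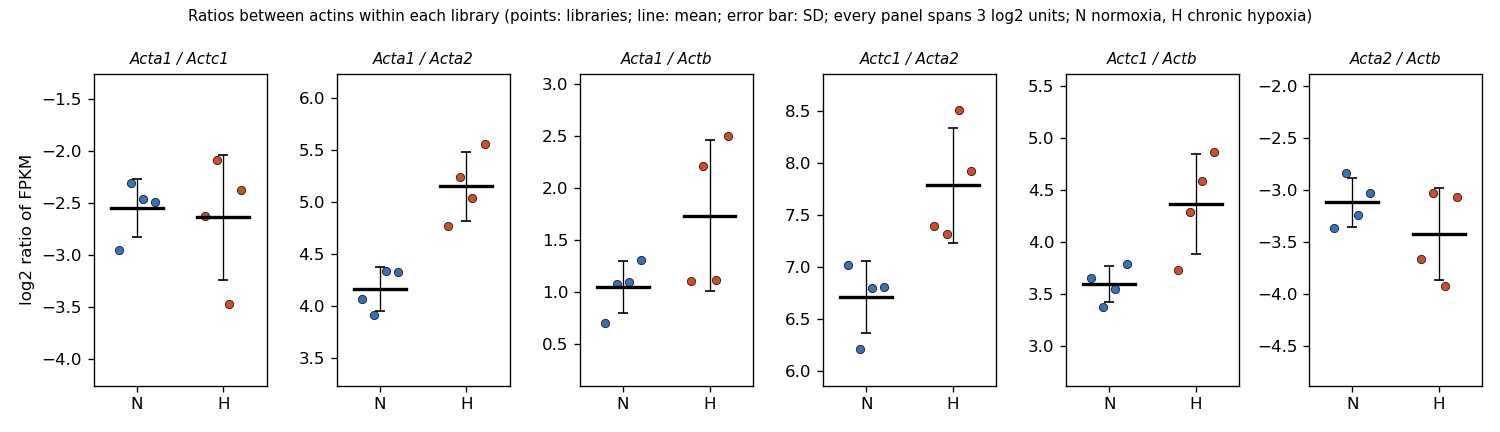
Log2 ratio of FPKM for each of the 6 pairs of actins within each library (vertical axis, 3 log2 units in every panel), with group mean and SD (n = 4). The groups lay apart for Acta1 to Acta2 and Actc1 to Acta2 and overlapped for the other 4 pairs.

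The 4 gene models were of similar length, 1436 bp for Acta1, 1489 bp for Actc1, 1391 bp for Acta2 and 1395 bp for Actb. In this series shorter gene models were higher in hypoxia, and the bin of 1422 genes of 1329 to 1644 bp that holds all 4 actins had a median log2 fold change of 0.16, with 25.0% of its genes called higher. Within that bin, Actc1 lay above 97.7% of genes, Acta1 above 97.6%, Actb above 84.4% and Acta2 above 64.4%. After a correction for this length trend within each library, the log2 fold changes were 1.31 for Actc1, 1.23 for Acta1 and 0.46 for Actb (edgeR adjusted p = 0.00528, 0.00974 and 0.0309). Acta2 was then at 0.15 (edgeR adjusted p = 0.562). The part of RNA integrity or fragment size in these values was not tested. Among the 1422 most abundant genes, of which 29.5% were called higher, Actc1 and Acta1 each lay above 99.4%, while Actb lay above 87.3%.

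**Figure D5:**
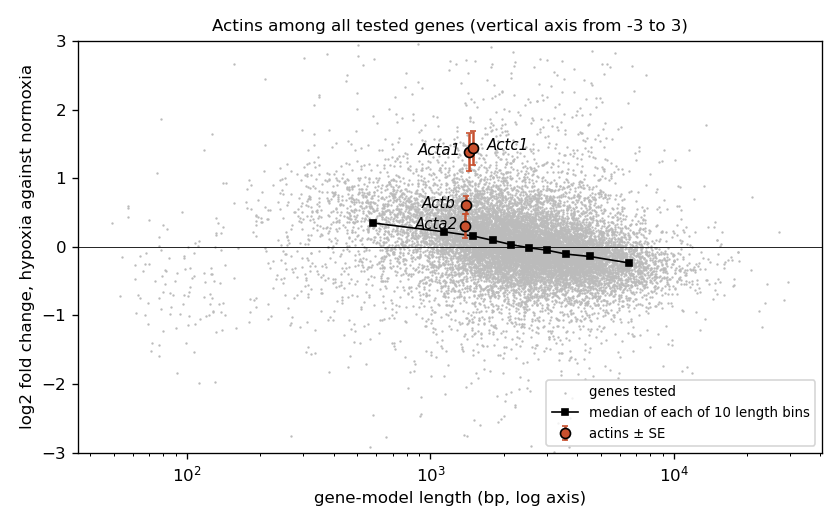
Log2 fold change in chronic hypoxia (vertical axis, limited to −3 to 3, so genes beyond it are not drawn) against gene-model length (log axis) for all genes tested in grey, with the medians of 10 length bins as squares and the 4 actins ± SE in red. The bin medians fell from 0.35 to −0.23 with length, and Acta1 and Actc1 lay far above the median of 0.16 of their bin.

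Likeness of pattern was measured as Pearson's r of log2 CPM over the 8 libraries, which include the group difference, among 7885 other genes that averaged 10 CPM or more. It is a description with no test. Acta1 and Actc1 had an r of 0.858, and Acta1 ranked 744 among the genes most like Actc1. Actc1 had 159 genes at an r of 0.95 or more, Acta1 had 33, Actb 26 and Acta2 2. The 3 genes most like each actin had r from 0.994 to 0.997 for Actc1, 0.986 to 0.989 for Acta1, 0.976 to 0.990 for Actb and 0.923 to 0.979 for Acta2. None of them was Acta1, Actc1, Acta2 or Actb. Without symbols they are not named, so whether any of them is an actin outside this set is not known. Within this set, the nearest to Acta2 was Acta1 (r = 0.791), and the nearest to Actb was Actc1 (r = 0.872).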

How the data were processed

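Per the labels' protocols, Trizol was used for RNA extraction and a NEBNext Ultra RNA kit for the libraries. For each of 8 libraries (n = 4 per group) the authors deposited whole-number read counts per gene, not normalized, and FPKM values (counts divided by library total and length of the gene model). The submitters' processing notes name Bowtie2 2.2.3, HISAT2 2.1.0, HTSeq 0.6.0 and rn6. The sources used here do not say whether strand was used or how reads matching several places were counted. Gene-model lengths were recovered from counts and FPKM.

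The members, gene lists and tests were chosen with earlier results of these data known. Counts were fitted with edgeR 4.0.16 in R 4.3.3 (filterByExpr, minimum count 10, TMM scaling, quasi-likelihood test, group as the only term), with Benjamini-Hochberg adjustment over all genes tested and a threshold of 0.05. The script was tested on simulated data. Shares and log2 ratios of FPKM, each with 1 value for a library, went into exact two-sided permutation tests with 70 assignments (smallest p 0.0286), adjusted over 10 measures, with scipy 1.17.1. P-values set the difference of the groups against the spread between these samples. Alternatives were RLE, upper-quartile or total-count scaling, DESeq2 1.42.0, limma 3.58.1 (voom, or a trend on log2 FPKM with 1 or 0.1 added, for genes with a mean FPKM of 1 or without a filter), robust dispersions, other filters, a replicate block, a lowess length correction (span 0.3) and libraries left out. The genes to be named were the 4 actins and, by symbol, the 3 most alike in pattern and members of 5 lists, with 7 lists of cell type markers. Apart from the actins, no symbol could be matched, so these lists were not used here. Promoters came from RefSeq (GRCr8).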

Additional observations from a re-analysis of the deposited data

Results flagged for a closer look

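Single libraries stood far from the other 3 of their group in 2 of 36 groups of 4 values checked, many of them related. Chance alone gives such a gap in about 1 group in 20. Acta2 in normoxia library 2 was at 40.8 FPKM, against 27.2 to 29.5 FPKM in the other normoxia libraries, and without it the Acta2 log2 fold change was 0.44 (SE 0.17; adjusted p = 0.0934, edgeR) in place of 0.30. Actb in hypoxia library 2 was at 400.5 CPM, against 576 to 600.0 CPM in the other hypoxia libraries, and without it the Actb log2 fold change was 0.72 (SE 0.09; adjusted p = 0.00115, edgeR) in place of 0.61.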

How the results depend on the processing

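Acta1 and Actc1 were called higher under all 23 alternatives, with log2 fold changes of 1.00 to 1.62 and 0.86 to 1.85, and Acta2 was called under none of them, at 0.11 to 0.44. Actb kept its direction in all 23 and its call in 20. It lost the call in limma on log2(FPKM + 1) and log2(FPKM + 0.1), where its log2 fold change was 0.42 with adjusted p of 0.0648 on each scale, and on log2(FPKM + 1) with no filter, at 0.42 with an adjusted p of 0.117; the cause was not tested. Its adjusted p otherwise ran from 1.49e-04 to 0.0453. The fits that lacked 1 library gave 1.00 to 1.53 for Acta1, 1.22 to 1.59 for Actc1, 0.12 to 0.44 for Acta2 and 0.56 to 0.72 for Actb. Without hypoxia library 4, Acta2 was at 0.12 in place of 0.30.

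With the replicate number as a block, log2 fold changes were 1.28 for Acta1, 1.37 for Actc1, 0.29 for Acta2 and 0.59 for Actb, with no call changed, and 3841 genes were called in place of 4693. The labels do not say that the numbers pair the animals. Same-number correlations ran from −0.0847 to 0.0187, so no pairing was evident, but such values cannot exclude one. The number of called genes was 3315 to 4758 with a library left out and stayed within 1.5 times of 4693 in all 23 alternatives. The 10 share and ratio measures kept their direction with medians, with summed counts in place of FPKM for the shares and with FPKM + 1 for the ratios. Their adjusted p-values, which could hardly pass with 4 hearts against 4, say nothing about stability. They were given no p when a library was left out. The Acta1 share then differed by −1.39 to 2.05 percentage points and the Acta1 to Actc1 log2 ratio by −0.27 to 0.19, with either sign, while the other 8 measures kept theirs. The Actc1 share differed by 0.584 to 4.20 points, the ends being without hypoxia libraries 3 and 2.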
